A study of Mus musculus with 6 samples.

Results

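The 10 genes described here encode enzymes that make long-chain polyunsaturated fatty acids, place them in membrane phospholipids, or release them again. Scd2 is the exception, as its enzyme makes monounsaturated fatty acids. The genes were chosen by name, and each of the 10 names matched exactly 1 of the 49671 genes in the deposited files. The set holds the desaturases Fads1, Fads2, and Scd2, the elongases Elovl2 and Elovl5, the acyl-CoA ligases Acsl3 and Acsl4, the acyltransferase Lpcat3, and the phospholipases A2 Pla2g4a and Pla2g6. RNA-Seq was performed on MuSCs, the resident stem cells of skeletal muscle, sorted at day 3 after injury from 3 mice given resolvin D1 (RvD1) and 3 mice given vehicle. All 6 mice were female C57BL/6 animals aged 4 to 6 months, and both of their TA muscles had been injected with 50 μL of 1.2% BaCl2, a salt that destroys myofibers. RvD1 was given IP at 100 ng daily over 72 hours, and the vehicle was 0.1% ethanol. Each library came from 1 mouse, with its 2 TA muscles pooled, so every library is from injured muscle and uninjured MuSCs were not analysed here.

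Mammals obtain linoleic and α-linolenic acid from the diet and convert them, by alternating desaturation and elongation in the endoplasmic reticulum, into arachidonic acid, EPA, and DHA. Free fatty acids are then activated to acyl-CoA by ligases and esterified into phospholipids, from which phospholipases A2 free them. Free arachidonic acid is the precursor of prostaglandins and leukotrienes, and free DHA is the precursor of D-series resolvins such as RvD1 itself. These steps are enzymatic, and a transcript level is not a measure of enzyme activity or of the lipid.

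Library depth ranged from 16148026 to 28149176 expected counts, so that 3 counts, the floor used here for counting error only, equaled 0.107 to 0.186 CPM. The sorted cells carried the myogenic transcripts that their label implies, with the 10 myogenic markers summing to between 5648 and 6611 CPM with RvD1 and between 5620 and 6249 CPM with vehicle. Pax7, the transcription factor that defines MuSCs, was at 4.03 to 8.50 TPM, and Myog, which marks differentiating myoblasts, was at 818 to 1378 TPM. Transcripts of other cell types were measured as well. The 8 fibro-adipogenic markers summed to 3263, 1574, and 2260 CPM in RvD1 replicates 1, 2, and 3 and to between 1873 and 2074 CPM with vehicle, and the 5 mural markers to between 402 and 736 CPM against 449 to 535 CPM. A few genes carried these sums, and which cells expressed them was not tested. Over the 6 libraries, Col3a1 was at 401 to 806 TPM and Pdgfra at 1.57 to 3.55 TPM. Among the mural markers, Acta2 was at 250 to 512 TPM and Pdgfrb, the next highest, at 11.3 to 29.4 TPM. The 14 leukocyte markers summed to between 31.2 and 52.1 CPM with RvD1 and between 47.8 and 86.8 CPM with vehicle. The 8 endothelial markers lay between 14.1 and 29.3 CPM against 12.8 to 37.9 CPM, the 4 Schwann cell markers between 28.0 and 56.8 CPM against 22.2 to 28.6 CPM, and the 6 erythroid markers between 3.08 and 30.9 CPM against 10.03 to 26.3 CPM. Log2 fold changes were below 0 for all 14 leukocyte markers (median −0.44) and 6 of 8 endothelial markers (median −0.95), and above 0 for 7 of 8 fibro-adipogenic (median 0.29), 5 of 5 mural (median 0.45), 4 of 4 Schwann cell (median 0.64), and 7 of 10 myogenic markers (median 0.08), while the 3 erythroid markers that passed the count filter were below 0 (median −0.43). The 1 fibro-adipogenic marker below 0 was Ly6a at −0.62, named after its values were seen. Ly6a was at 25.4, 22.4, and 17.25 TPM with RvD1 and 39.7, 26.3, and 30.3 TPM with vehicle. Over all genes tested, 53.5% were above 0. An unadjusted edgeR p under 0.05 was reached by 4 leukocyte markers and 1 fibro-adipogenic marker, lower with RvD1, beside 1.64% of all genes. It was reached by 1 mural and 1 Schwann cell marker in the higher direction, beside 1.83%. None passed after adjustment. No gene of these lists was at 0 in every library, and the part of these cells in the results below was not tested. In bulk libraries, fewer cells of a type and less RNA per cell cannot be told apart.

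All 10 genes were expressed above the floor and passed the count filter, but their levels spanned a wide range. On the TPM scale, which corrects for transcript length and so allows genes to be compared, Acsl3 was highest with a mean of 121 TPM over the 6 libraries, followed by Scd2 at 111 TPM. Acsl4 at 65.9 TPM, Elovl5 at 64.4 TPM, Lpcat3 at 50.5 TPM, and Fads1 at 37.4 TPM formed the middle of the order. Fads2 at 15.7 TPM and Pla2g6 at 8.24 TPM came next, and Elovl2 at 1.47 TPM and Pla2g4a at 1.42 TPM were the lowest. Neighbours in this order were told apart in all 6 libraries from Scd2 down to Acsl4, from Elovl5 down to Lpcat3, and in each step from Lpcat3 to Elovl2. Acsl3 exceeded Scd2 in 4 of 6 libraries, Acsl4 exceeded Elovl5 in 3, and Elovl2 exceeded Pla2g4a in 4, so these neighbours did not differ beyond their spread. The 10 genes together summed to 584, 455, and 506 TPM in RvD1 replicates 1, 2, and 3 and to 477, 419, and 421 TPM in vehicle replicates 1, 2, and 3, of which Acsl3, Scd2, and Acsl4 made up 59.9% to 66.3%.

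**Figure D1:**
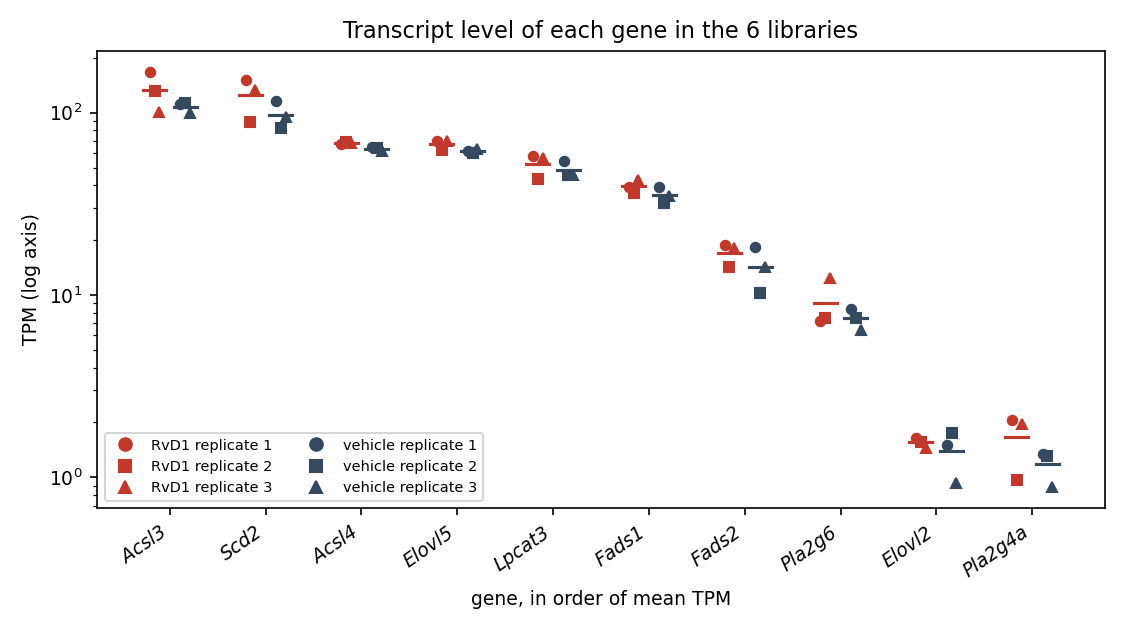
TPM of each gene (log axis) in the 3 RvD1 libraries (red) and the 3 vehicle libraries (dark blue), in order of mean TPM, with 1 point per library and a line at the mean of each group. Acsl3 and Scd2 are the highest and Elovl2 and Pla2g4a the lowest, and the ranges of the 2 groups overlap for every gene but Acsl4, whose 3 RvD1 points lie just above the 3 vehicle points.

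None of the 10 genes passed the test for a change with RvD1, and their intervals, given for each gene, bound the change that the 3 mice per group allow. A p value that misses the threshold does not show that the groups were alike. The comparison asks whether RvD1 given to the mouse altered the MuSC transcripts of the enzymes that make and release its own precursor. By edgeR (quasi-likelihood test, Benjamini-Hochberg adjustment over 14494 genes), 0 of the 10 had an adjusted p under 0.05, and 0 of all genes did (0%), with 0.971 as the smallest adjusted p. An unadjusted p under 0.05 was reached by 503 genes (3.47% of those tested, 1.83% higher and 1.64% lower with RvD1) and by 0 of the 10. DESeq2 and limma-voom, with and without removal of 1 surrogate variable, also called 0 of the 10 and 0 of all genes. The log2 fold change was above 0 for 9 of the 10, against 53.5% of all genes tested, and ranged from −0.04 to 0.35 with a median of 0.055, against 0.01 over all genes. The libraries of the 2 groups overlapped in CPM for all 10, where 9.62% of all genes did not overlap. Below, levels within 1 gene are given as CPM normalized by the TMM method, fold changes are RvD1 over vehicle on the log2 scale with their standard errors, and adjusted p values are from edgeR over all genes tested.

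**Figure D2:**
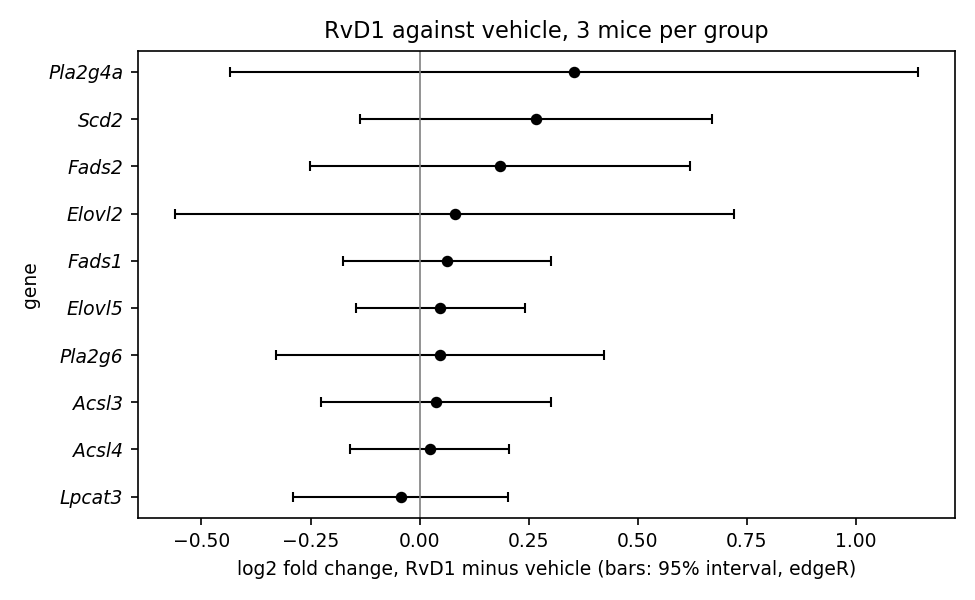
Log2 fold change of each gene, RvD1 minus vehicle (3 mice per group), with bars for the 95% interval derived from the edgeR test. All 10 intervals cross 0, and the interval of Acsl4 is the narrowest (−0.16 to 0.20) and that of Pla2g4a the widest (−0.43 to 1.14).

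Fads2 is the first and rate-limiting desaturase of the pathway. Its level was 34.1, 27.3, and 33.5 CPM in RvD1 replicates 1, 2, and 3 and 34.8, 20.3, and 28.5 CPM in vehicle replicates 1, 2, and 3. The highest and the lowest value both belonged to the vehicle group, so the RvD1 libraries lay inside the vehicle range. The means were 31.7 ± 3.76 CPM (SD, n = 3) and 27.9 ± 7.22 CPM (SD, n = 3), with a log2 fold change of 0.18 (SE 0.19, 95% interval −0.25 to 0.62, edgeR adjusted p = 0.971). Without vehicle replicate 2, the lowest library, the log2 fold change was 0.0005, and without vehicle replicate 1, the highest, it was 0.37.

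Fads1 acts after Fads2 and an elongation step and produces arachidonic acid and EPA. It lies beside Fads2 on chromosome 19 (GRCm38), at chr19:10182888-10196877 on the plus strand, with Fads2 at chr19:10062765-10101746 on the minus strand. Fads1 was at 76.4, 71.6, and 84.4 CPM with RvD1 and at 78.9, 67.9, and 75.5 CPM with vehicle. Means of 77.5 ± 6.498 CPM and 74.1 ± 5.62 CPM (SD, n = 3 each) gave a log2 fold change of 0.06 (SE 0.105, 95% interval −0.18 to 0.30, edgeR adjusted p = 0.971). Replicate 2 was the lowest library of its group for both desaturases, with RvD1 and with vehicle alike. The ratio of Fads2 to Fads1, taken within a library from TPM, was, with no pseudocount, 0.481, 0.393, and 0.424 with RvD1 and 0.465, 0.319, and 0.406 with vehicle, so Fads1 was more abundant per length in every library. With a pseudocount of 0.1 TPM added to each gene, as for every ratio difference below, it differed between groups by 0.14 on the log2 scale (exact permutation test, two-sided, p = 0.5, adjusted p = 0.9 over 5 ratios, where 0.1 is the smallest p that 20 label assignments allow).

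Scd2 is a stearoyl-CoA desaturase that makes monounsaturated fatty acids and thus supplies the oleate that competes with polyunsaturated chains for places in phospholipids. It lies at chr19:44293674-44306864 (GRCm38, plus strand). It had the most counts of the 10 genes, with 480, 297, and 431 CPM in the RvD1 libraries and 386, 288, and 330 CPM in the vehicle libraries. RvD1 replicates 1 and 3 lay above all vehicle libraries, whereas RvD1 replicate 2 lay below 2 of them. The means were 403 ± 94.4 CPM and 335 ± 48.8 CPM (SD, n = 3 each), and the log2 fold change of 0.27 (SE 0.18, edgeR adjusted p = 0.971) had a 95% interval of −0.14 to 0.67, or 0.910-fold to 1.59-fold. Single libraries moved this value, as the log2 fold change was 0.44 without RvD1 replicate 2 (edgeR unadjusted p = 0.012, adjusted p = 0.725) and 0.12 without RvD1 replicate 1. Fads2 and Scd2 shared their lowest and highest libraries within each group. The same held in part for Scd1, the paralog with the same reaction, which was at 32.3, 19.4, and 27.1 CPM with RvD1 and 23.7, 22.2, and 17.5 CPM with vehicle (log2 fold change 0.31, SE 0.20, edgeR adjusted p = 0.971). Scd2 exceeded Scd1 by 12.1-, 13.5-, and 14.1-fold in TPM with RvD1 and by 14.4-, 11.5-, and 16.6-fold with vehicle. This ratio differed by −0.08 on the log2 scale (exact permutation test, two-sided, p = 0.7, adjusted p = 0.9).

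Elovl5 and Elovl2 lengthen the desaturated chains, with Elovl5 acting on the shorter and Elovl2 on the longer polyunsaturated substrates that lead to DHA. Elovl5 lies at chr9:77917364-77984519 on the plus strand and Elovl2 at chr13:41182381-41220405 on the minus strand (GRCm38). Elovl5 was at 111, 105, and 113 CPM with RvD1 and at 102, 105, and 111 CPM with vehicle. Its spread was among the smallest of the 10 genes, and a mean of 109.5 ± 4.09 CPM against 106 ± 4.33 CPM (SD, n = 3 each) gave a log2 fold change of 0.05 (SE 0.09, 95% interval −0.15 to 0.24, edgeR adjusted p = 0.971). Elovl2 was at 3.67, 3.68, and 3.27 CPM with RvD1 and at 3.53, 4.25, and 2.28 CPM with vehicle, the vehicle libraries holding both extremes. These values rest on 42 to 103 counts a library. Its log2 fold change was 0.08 (SE 0.28, 95% interval −0.56 to 0.72, edgeR adjusted p = 0.987), with means of 3.54 ± 0.230 CPM and 3.35 ± 0.998 CPM (SD, n = 3 each). Elovl5 exceeded Elovl2 in TPM by 42.2-, 39.9-, and 48.2-fold in the RvD1 libraries and by 40.7-, 34.4-, and 67.8-fold in the vehicle libraries, and the difference of this ratio between groups was −0.06 on the log2 scale (exact permutation test, two-sided, p = 0.9, adjusted p = 0.9).

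Acsl3 and Acsl4 attach coenzyme A to long-chain fatty acids, and Acsl4 prefers arachidonic acid and other polyunsaturated chains. Both were among the highest genes of the set and both were close to even between groups in CPM. The genes lie at chr1:78657825-78707743 on the plus strand and chrX:142317993-142390535 on the minus strand (GRCm38). Because they catalyze the same reaction, the 250 bases upstream of their RefSeq transcript starts (GRCm38.p6) are shown with those of Elovl5, with capitals marking a CCAAT box (letters CCAAT or the reverse complement ATTGG). Acsl3 lies on the plus strand at chr1:78657575-78657824, Acsl4 on the minus strand at chrX:142390536-142390785, and Elovl5 on the plus strand at chr9:77917115-77917363, where the last base of the window is left out because it falls in an annotated exon.
Acsl3: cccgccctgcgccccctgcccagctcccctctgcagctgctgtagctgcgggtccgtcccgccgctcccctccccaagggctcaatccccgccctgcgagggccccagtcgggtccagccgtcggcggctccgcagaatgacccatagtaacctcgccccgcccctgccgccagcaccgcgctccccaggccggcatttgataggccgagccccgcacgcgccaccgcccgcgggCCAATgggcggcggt
Acsl4: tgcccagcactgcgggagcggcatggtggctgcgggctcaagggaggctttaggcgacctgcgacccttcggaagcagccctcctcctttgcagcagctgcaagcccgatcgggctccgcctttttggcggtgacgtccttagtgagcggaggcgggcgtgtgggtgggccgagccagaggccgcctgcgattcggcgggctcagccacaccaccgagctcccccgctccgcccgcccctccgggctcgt
Elovl5: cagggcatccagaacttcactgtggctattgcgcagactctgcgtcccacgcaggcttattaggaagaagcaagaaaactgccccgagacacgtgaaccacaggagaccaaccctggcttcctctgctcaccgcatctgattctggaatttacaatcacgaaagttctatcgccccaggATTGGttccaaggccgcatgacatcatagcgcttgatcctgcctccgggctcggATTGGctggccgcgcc
A window was found for 8 of the 10 genes, and none for Fads1 and Scd2. A CCAAT box stood in 4 of the 8, Acsl3, Elovl5, Lpcat3, and Pla2g6, where 33.8% of all 32851 RefSeq windows of 250 bases hold one on either strand. Positions count back from the transcript start. The box lay at −15 in Acsl3 and at −71 and −17 in Elovl5, and the Acsl4 window held none. The E-box CACGTG occurred once among the 8 genes, at −161 in Elovl5, against 6.02% of all windows, and the sterol regulatory element TCACNCCAC in none of the 8, against 1.05% of all windows. With so low a share, absence of the sterol element from 8 genes does not set them apart. Fads1 and Scd2 were not searched for any of these motifs. These matches describe letters in a window, and their relation to expression was not tested.

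The Acsl3 transcript, which the 6 libraries held at 226, 210, and 170 CPM with RvD1 and at 192, 210, and 189 CPM with vehicle, was highest in RvD1 replicate 1 and lowest in RvD1 replicate 3. The group means were 202 ± 28.8 CPM and 197 ± 11.6 CPM (SD, n = 3 each), with a log2 fold change of 0.04 (SE 0.12, 95% interval −0.23 to 0.30, edgeR adjusted p = 0.984). Acsl4 was the steadiest gene of the set, at 199, 214, and 199 CPM with RvD1 and 199, 205, and 198 CPM with vehicle. Its log2 fold change was 0.02 (SE 0.08, edgeR adjusted p = 0.987), and the 95% interval of −0.16 to 0.20 corresponds to between 0.896-fold and 1.15-fold. The TPM ratio of Acsl4 to Acsl3 was 0.402, 0.527, and 0.682 with RvD1 and 0.584, 0.563, and 0.617 with vehicle, so that the RvD1 libraries spread across both sides of the vehicle range. That ratio differed by −0.16 on the log2 scale (exact permutation test, two-sided, p = 0.6, adjusted p = 0.9). On counts, the log2 fold changes of Acsl4 and Acsl3 were 0.02 and 0.04, as given above. The transcript length that scales Acsl3 in TPM, described below, varied from 2289 to 2936 bases among libraries. Its part in this ratio was not tested.

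Lpcat3 transfers polyunsaturated acyl chains from acyl-CoA to lysophospholipids and so enriches membranes in arachidonate. The gene lies at chr6:124663027-124704418 (GRCm38, plus strand). It was at 64.9, 54.2, and 61.5 CPM with RvD1 and at 66.8, 58.3, and 61.1 CPM with vehicle. Replicate 1 was the highest and replicate 2 the lowest library of both groups. Lpcat3 was the single gene of the 10 with a negative log2 fold change, at −0.04 (SE 0.11, 95% interval −0.29 to 0.20, edgeR adjusted p = 0.977), with means of 60.2 ± 5.49 CPM and 62.0 ± 4.34 CPM (SD, n = 3 each). On the TPM scale its sign was the opposite, at 0.10.

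Pla2g4a and Pla2g6 encode phospholipases A2 that cut fatty acids from phospholipids, and lie on the minus strand at chr1:149829618-149961290 and chr15:79286228-79328390 (GRCm38). Pla2g4a, the calcium-dependent cytosolic enzyme with a preference for arachidonate, was low, with 75, 47, and 51 counts in the RvD1 libraries and 36, 41, and 29 counts in the vehicle libraries. Scaled for depth, these were 3.40, 1.68, and 2.83 CPM against 2.23, 2.36, and 1.57 CPM. The RvD1 group held the highest values and also a library below 2 of the vehicle libraries. Its log2 fold change of 0.35 was the largest of the set and also the least precise (SE 0.35, 95% interval −0.43 to 1.14, edgeR adjusted p = 0.971), which spans 0.740-fold to 2.20-fold. It was 0.12 without RvD1 replicate 1 and 0.60 without RvD1 replicate 2. Pla2g6, the calcium-independent enzyme that has been linked to release of DHA, was at 12.3, 13.5, and 16.8 CPM with RvD1 and at 14.7, 14.0, and 12.5 CPM with vehicle. RvD1 replicate 3 was above and RvD1 replicate 1 below every vehicle library. Means of 14.2 ± 2.31 CPM and 13.7 ± 1.12 CPM (SD, n = 3 each) gave a log2 fold change of 0.05 (SE 0.17, 95% interval −0.33 to 0.42, edgeR adjusted p = 0.987). Per length, Pla2g4a was below Pla2g6 in every library, with a ratio of 0.288, 0.130, and 0.158 in the RvD1 group and 0.159, 0.174, and 0.138 in the vehicle group. The ratio differed by 0.18 on the log2 scale (exact permutation test, two-sided, p = 0.9, adjusted p = 0.9).

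The 10 genes did not vary alike among libraries of one group. RvD1 replicate 2 was the lowest RvD1 library for 6 of them (Fads1, Fads2, Elovl5, Lpcat3, Pla2g4a, and Scd2), as it was for 29.2% of all genes. Vehicle replicate 2 was the lowest vehicle library for 4 (Fads1, Fads2, Lpcat3, and Scd2), as it was for 27.9% of all genes. RvD1 replicate 1 was the highest RvD1 library for 5, against 39.9% of all genes, and it also had the most fibro-adipogenic, mural, and Schwann cell marker transcripts. Relative to its 6-library mean on the log2 scale, Scd2 stood at 0.41, −0.28, and 0.25 in RvD1 replicates 1, 2, and 3 and at 0.09, −0.33, and −0.14 in vehicle replicates 1, 2, and 3. Acsl4 stayed within 0.08 of its mean throughout. The fibro-adipogenic marker sum took the same order as Scd2 among the RvD1 libraries but not among the vehicle libraries, and its part in these values was not tested.

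**Figure D3:**
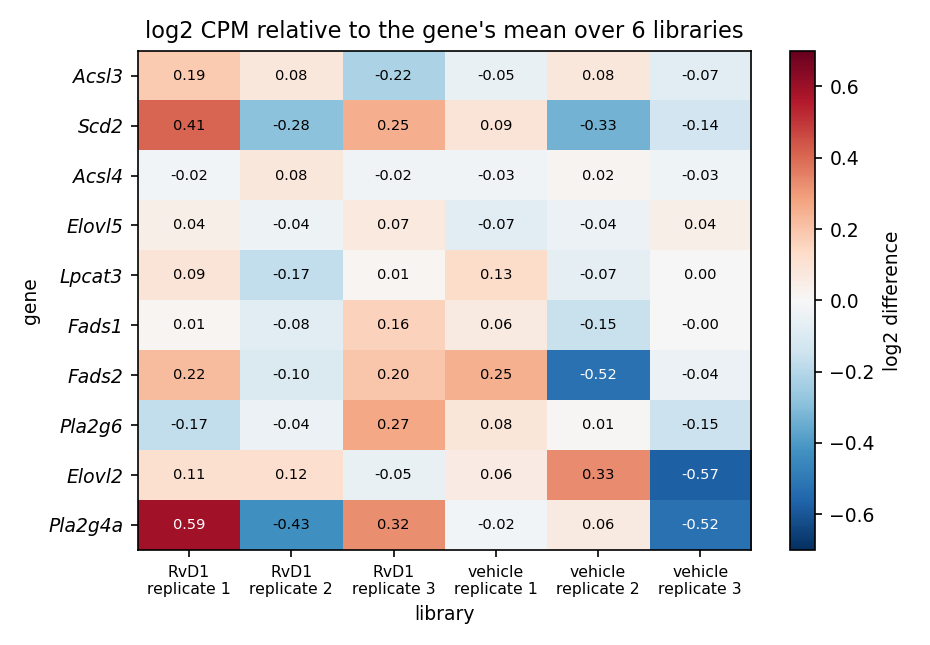
Heat map of log2 CPM of each gene (rows) in each library (columns) relative to that gene's mean over the 6 libraries, with the difference printed in each cell. Scd2, Fads1, Fads2, Elovl5, and Lpcat3 share negative cells in replicate 2 of both groups, Acsl4 stays within 0.08 of 0, and Pla2g4a runs from −0.52 to 0.59.

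The files also allowed a look at which transcripts stood behind each gene, because counts, FPKM, and library totals together give the transcript length that was used to scale a gene in each library. This implied effective length reflects the mix of isoforms that RSEM assigned. It was nearly constant for Scd2, where the longest value exceeded the shortest by 0.031%, and varied by less than 1% for Fads2, Elovl5, and Elovl2 as well. Of the 12318 genes with at least 0.5 FPKM in every library, 20.3% varied by less than 1%. Acsl3 was at 2289, 2577, and 2840 bases in RvD1 replicates 1, 2, and 3, against 2791, 2867, and 2936 bases with vehicle, the longest 28.3% above the shortest. Pla2g6 fell to 2257 bases in RvD1 replicate 3 and lay between 2822 and 3013 bases in the other libraries, the longest 33.5% above the shortest. These 2 genes were the ones over 20%, as were 25.2% of all genes, and the groups overlapped for every gene of the set. GENCODE M21 lists 7 transcripts for Acsl3 and 13 for Pla2g6, of which 3 and 5 retain an intron.

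**Figure D4:**
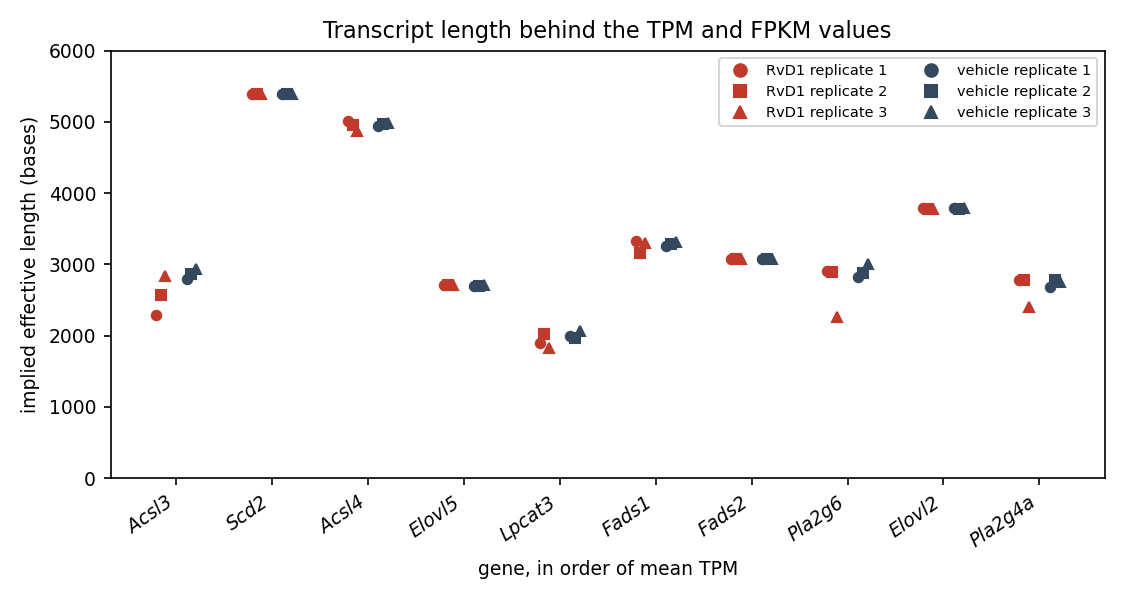
Implied effective transcript length (bases) of each gene in the 3 RvD1 libraries (red) and the 3 vehicle libraries (dark blue), with 1 point per library and genes in order of mean TPM. Acsl3 spreads from 2289 to 2936 bases and Pla2g6 from 2257 to 3013 bases, while Scd2, Fads2, Elovl5, and Elovl2 form tight groups.

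Values on the TPM scale differed from those on counts for some genes, and the cause was not tested. Total TPM over total FPKM, a scale shared by all genes of a library, was 1.65, 1.61, and 1.67 in RvD1 replicates 1, 2, and 3. With vehicle this scale was 1.62, 1.58, and 1.57. The TMM factors, which enter CPM but not TPM, were 1.035, 0.9969, and 1.005 with RvD1 and 1.001, 0.9797, and 0.983 with vehicle. On log2(TPM + 1), the difference for Acsl3 was 0.27 where its count-based log2 fold change was 0.04, that of Pla2g6 was 0.22 against 0.05, and that of Acsl4 was 0.11 against 0.02. All 10 genes were higher with RvD1 on this scale, but so were 67.9% of all genes, whose median difference was 0.08. Acsl4 was the 1 gene of the 10 whose TPM values did not overlap, with means of 68.4 ± 0.798 TPM in the RvD1 group and 63.4 ± 1.93 TPM in the vehicle group (SD, n = 3 each), where 8.89% of all genes were higher and 2.52% lower with RvD1 without overlap in TPM. No gene of the set was called by limma on TPM. Counts for Acsl3, Lpcat3, and Scd2 were fractional in all 6 libraries and those for Fads2 in 2, which means that RSEM divided reads between these genes and other sequences, so their values carry that uncertainty. Acsl3 overlaps Utp14b on the same strand, Lpcat3 overlaps Emg1 on the opposite strand, and Pla2g6 has the antisense gene Gm20420. The published methods call the RNA-Seq data single-stranded, but the strand setting used in counting is not given in the sources used here, so it is uncertain how reads of opposite-strand partners were assigned.

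Other genes of the pathway were read from 8 lists with 86 genes, of which 63 passed the count filter. Of these 63, 25 had a log2 fold change above 0 and 38 below 0, the median was −0.02, and 0 were called. The other enzymes of the elongation cycle were below 0 for 9 of 11 (median −0.10), and Tecr, the final reductase of the cycle and the most abundant of that list, averaged 313 ± 13.3 TPM in the RvD1 group and 332 ± 6.44 TPM in the vehicle group (SD, n = 3 each, log2 fold change −0.15, SE 0.08, edgeR adjusted p = 0.971). Other lysophospholipid acyltransferases were below 0 for 10 of 11 (median −0.04), with Agpat3 at −0.03 as the most abundant. Other phospholipases A2 were above 0 for 6 of 7 (median 0.07), and Prdx6, a peroxiredoxin with phospholipase A2 activity that was the most abundant gene of that list, was at −0.15. Among other desaturases 2 of 3 were above 0, and the most abundant, Degs1 of ceramide synthesis, was at −0.10. Fatty acid uptake and binding genes were above 0 for 2 of 6 (Fabp5, −0.27), peroxisomal genes of DHA synthesis for 2 of 6 (Scp2, −0.07), transcriptional regulators for 7 of 12 (Srebf2, −0.01), and other acyl-CoA synthetases for 3 of 7 (Acsl5, −0.10). Each gene in brackets is the most abundant of its list.

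Acsbg1, an acyl-CoA synthetase that activates very long-chain fatty acids, was the 1 gene of the 63 with an unadjusted p under 0.05 (1.83% of all genes reached this in the higher direction). It was at 7.33, 8.17, and 6.82 CPM with RvD1 and at 4.95, 3.79, and 4.34 CPM with vehicle, so that all RvD1 libraries were above all vehicle libraries, as were those of 4.80% of all genes. The log2 fold change was 0.77 (SE 0.20, 95% interval 0.31 to 1.23), and edgeR's adjusted p of 0.971 did not pass the threshold. Hacd1, Tecr, and Hsd17b4, named after their values were seen, were the 3 genes of the lists with all RvD1 libraries below all vehicle libraries, a pattern that 4.83% of all genes had.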

How the data were processed

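The data are RNA-Seq libraries of FACS-sorted MuSCs (β1-integrin+ and CXCR4+, with cells bearing CD45, CD11b, Sca-1, or Ter119 gated out), made with SMART-Seq v4 and Nextera XT and sequenced as 76-bp single-end reads. RNA input was 10 ng in the published methods and 1 ng in the sample labels. The authors aligned reads to mm10 with STAR 2.5.0a and estimated gene abundance by RSEM. Expected counts, as deposited, are unscaled RSEM estimates. TPM, as deposited, are corrected for length and scaled to library totals, and the values listed sum to between 996112 and 996309. FPKM, as deposited, are corrected for length and for the number of fragments. After 1 stray header line was removed, each file held 49671 genes, of which 22860 were at 0 in every library.

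Expected counts were rounded and tested with edgeR 4.0.16 in R 4.3.3 (TMM, filterByExpr by group, quasi-likelihood test, Benjamini-Hochberg threshold 0.05), a procedure checked on simulated counts. CPM values use TMM-adjusted totals. Alternatives were DESeq2 1.42.0, limma 3.58.1 with voom with and without surrogate variables from sva 3.50.0 (1 removed), other scaling and filters, robust estimation, a replicate block, TPM with pseudocounts of 1 and 0.1, and each replicate left out. Ratios per library are plain TPM ratios, and their log2 differences used TPM with a pseudocount of 0.1. Implied effective length is the expected count divided by the FPKM and the library total, in bases, and was chosen after seeing the data. Loci are from GENCODE M21 and upstream windows from RefSeq (GRCm38.p6). Genes and lists were chosen with earlier results of these data known. All 10 genes, the most abundant gene of each pathway list, and pathway genes with an unadjusted p under 0.05 are named by rule, and Scd1 is named as the partner of Scd2 in a ratio. Same-numbered libraries of the groups are different mice and were not treated as pairs.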

Additional observations from a re-analysis of the deposited data

How the results depend on the processing

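The count of the 10 genes called was 0 under every alternative, in each of edgeR, DESeq2, limma-voom, and limma on TPM. Of 169 alternative values of their log2 fold changes, 159 kept their sign and 10 reversed, and of 45 for the ratios 39 kept and 6 reversed. Over all genes, 12 were called without a count filter, and 0 to 1 with 1 replicate left out. The pathway genes with an unadjusted p under 0.05 numbered 7 of 83 with limma-voom after removal of the surrogate variable. There, 2973 of all 26518 genes tested under its looser filter reached this. That fit removed the variable before testing without counting it in the degrees of freedom, which tends to lower p values. How much this step or the filter added was not tested. Without a count filter in edgeR, the pathway genes with an unadjusted p under 0.05 numbered 3 of 83, beside 1143 of all 26641 genes. With the replicate block they were 2 of 63 (Acsbg1 and Fabp5), beside 896 of all 14494 genes. With 1 replicate left out they numbered 1 to 4, beside 282 to 1016 of all genes tested. The median log2 fold change of the 10 genes was 0.19 on log2(TPM + 1) and 0.21 on log2(TPM + 0.1). The medians over all genes on these scales were 0.08 and 0.09. The between-replicate SD of the median of the 10 genes, 0.08, was taken on log2 CPM and so is not on the TPM scale. Lpcat3 was at 0.10 and 0.11 on the TPM scales. The cause of the difference from the count-based values was not tested. The ratio of Elovl5 to Elovl2 differed by 0.017 with a pseudocount of 1.

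With 1 replicate left out, log2 fold changes ran from −0.0040 to 0.12 for Fads1, from −0.14 to 0.29 for Elovl2, from −0.049 to 0.15 for Acsl3, from −0.012 to 0.040 for Acsl4, from −0.10 to 0.03 for Lpcat3, and from −0.090 to 0.14 for Pla2g6. The log2 ratio differences ran from −0.0105 to 0.26 for Fads2 to Fads1, from −0.25 to 0.20 for Elovl5 to Elovl2, from −0.35 to 0.029 for Acsl4 to Acsl3, from −0.14 to 0.40 for Pla2g4a to Pla2g6, and from −0.22 to 0.038 for Scd2 to Scd1. The genes of the set above 0 numbered 7 to 10.

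With the replicate number as a block, 0 genes were called, and Scd2 had an edgeR unadjusted p of 0.026. An unadjusted p under 0.05 was reached by 896 genes with the block and by 503 without it. Deviations from the group means correlated at 0.31, −0.00071, and 0.126 for same-numbered libraries (mean 0.145). The mean for differently numbered libraries was −0.0734. Same-numbered libraries come from different mice and were not treated as pairs, and whether they shared a batch was not tested. No gene was called with or without the block. Under the strict filter Pla2g4a was not tested. Depth limits Elovl2 and Pla2g4a most, at 29 to 103 counts a library.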
